A study of Mus musculus with 4 samples.

Results

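The postsynaptic density is the protein meshwork under the membrane of excitatory synapses, and transcripts of 34 genes for its scaffolds and signalling enzymes were examined in prelimbic cortex punches of adult mice. The genes were taken by name from a list chosen with earlier results of these data known. Of the 34, 32 had at least 1 probe set annotated to their symbol alone, out of 18193 genes tested. Shank2 and Ppp1r9b were not analysed here. The animals were males on postnatal day 90, with 2 arrays of prenatally fluoxetine-treated offspring and 2 of untreated controls. The labels give no strain, dose, exposure window or litter for either group, and call the arrays of each group biological duplicates without saying whether 1 array holds 1 mouse. Fluoxetine is a selective serotonin reuptake inhibitor used as an antidepressant, and the prelimbic cortex is the part of the rodent medial prefrontal cortex tied to working memory and social behaviour.

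In a dendritic spine, membrane-associated guanylate kinases (MAGUKs) such as PSD-95 hold glutamate receptors by PDZ domains. Dlgap proteins bind the MAGUKs from below and Shank proteins bind the Dlgap proteins, which carries the chain to the actin cytoskeleton. Calcium that enters through NMDA receptors activates the kinase CaMKII, and exchange factors and activating proteins for small GTPases turn synaptic activity into changes of spine shape.

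Few members differed between the groups, and none passed correction for all genes tested. At an unadjusted p below 0.05 (limma's moderated test, two-sided), 4 of the 32 measured members were higher with fluoxetine, namely Dlgap2, Arhgap32, Camk2d and Abi1. A single member, Shank1, was lower, and 27 did not pass. The 4 are 12.5% of the members, where 3.45% of all genes were higher at the same threshold, and the 1 lower member is 3.12%, where 3.51% of all genes were lower. Because earlier results of these data were known when the list was chosen, these shares describe the list and do not test it. After Benjamini-Hochberg adjustment over all genes, 0 members and 0 genes (0% of those tested) had an adjusted p below 0.05, and the lowest adjusted p of a member was 0.696. The direction of calls depended on brightness. Among genes above the median level, 5.75% were higher and 2.29% lower, and 29 of the 32 members lay in that range.

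Most members moved little. The fitted log2 differences (fluoxetine minus untreated) ran from −0.31 to 0.37 with a median of −0.02. The median was also −0.02 over all genes, and it was 0.003 over genes above the median level. Of the 32, 23 differed by less than 0.1 in either direction and 4 by at least 0.2. The median size, whatever its direction, was 0.07 for members, 0.08 for all genes and 0.05 for genes above the median level. In 10 members (31.2%) both fluoxetine arrays stood above both untreated arrays, against 15.5% of all genes, and in 7 (21.9%) both stood below, against 22.3%. The groups overlapped in the other 15. An exact permutation test of 2 arrays against 2 cannot give a two-sided p below 0.333. No such test was run here, and limma's p-values can lie below that because they borrow the spread of other genes.

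**Figure D1:**
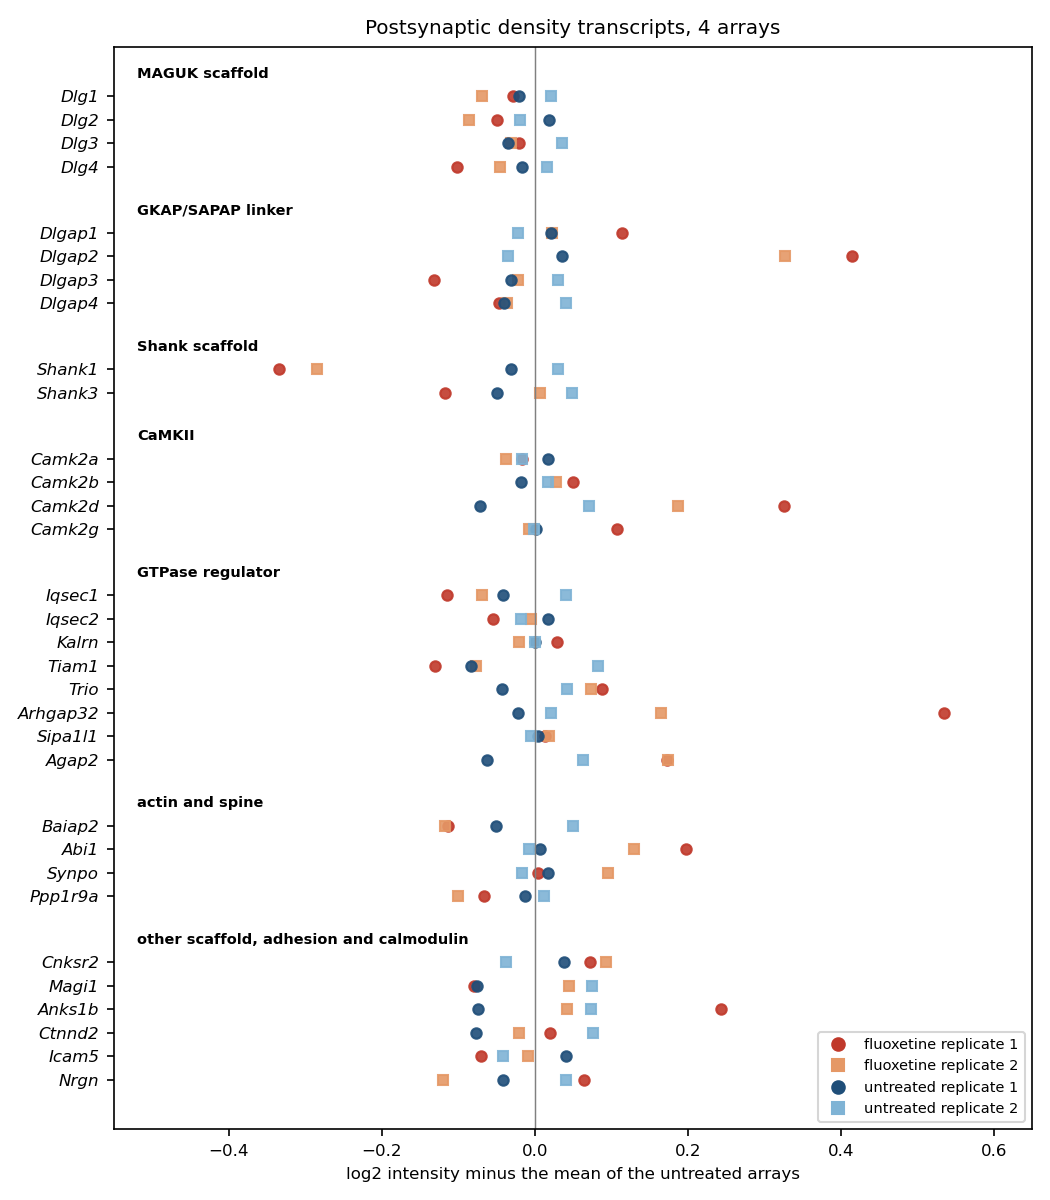
Each row is a member, grouped by role, and each point is 1 array, placed at its log2 intensity minus the mean of the untreated arrays of that gene. In 23 of the 32 rows the fitted difference is smaller than 0.1 in either direction, though single arrays can lie further from 0. Both fluoxetine arrays lie to the right of both untreated arrays in 10 rows, among them Dlgap2, Camk2d, Arhgap32 and Abi1. They lie to the left in 7 rows, among them Shank1.

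The 4 arrays had median log2 intensities from 6.44 to 6.502 and correlated over all probe sets at 0.997 for the fluoxetine arrays, 0.996 for the untreated arrays and 0.996 to 0.997 across groups. Cortical excitatory neuron markers had mean levels of 10.20 and 10.14 with fluoxetine and 10.10 and 10.14 without. Of the 11 measured, 3 were higher at an unadjusted p below 0.05, Neurod6, Cux2 and Fezf2, where 3.45% of all genes were higher. The other 8 did not pass and ran from −0.16 (Foxp2) to 0.10 (Rorb), with Slc17a7 at 0.01. Emx1, at −0.12, had both fluoxetine arrays below both untreated arrays. One array stood apart. In untreated replicate 2 all 14 measured markers of striatal medium spiny neurons were at their highest, with a mean level of 9.97, against 9.004 in untreated replicate 1 and 8.88 and 9.15 with fluoxetine. The mean level of 13 oligodendrocyte and myelin markers there was 11.21, against 10.93 to 10.94 on the other arrays. Of the 13, 4 were lower with fluoxetine at an unadjusted p below 0.05, where 3.51% of all genes were lower. The other 9 did not pass and ran from −0.33 (Opalin) to 0.02 (Mbp), with Mog at −0.0081. Striatal neurons also carry many density proteins, and in such bulk tissue fewer cells of a type and less RNA per cell cannot be told apart. Among the 7 members whose fluoxetine arrays both lay below, the highest array is an untreated one by definition, and in 6 it was replicate 2. The share over all such genes was not computed. The part of that array's striatal and myelin signal in these differences was not tested. Leaving out the higher untreated array must shrink such a difference, so the values that follow do not bear on that signal. Without that array, Iqsec1 went from −0.09 to −0.05, Dlg1 from −0.05 to −0.03 and Baiap2 from −0.12 to −0.07, while Dlg4 was at −0.06, Ppp1r9a at −0.07, Dlg2 at −0.09 and Shank1 at −0.28.

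**Figure D2:**
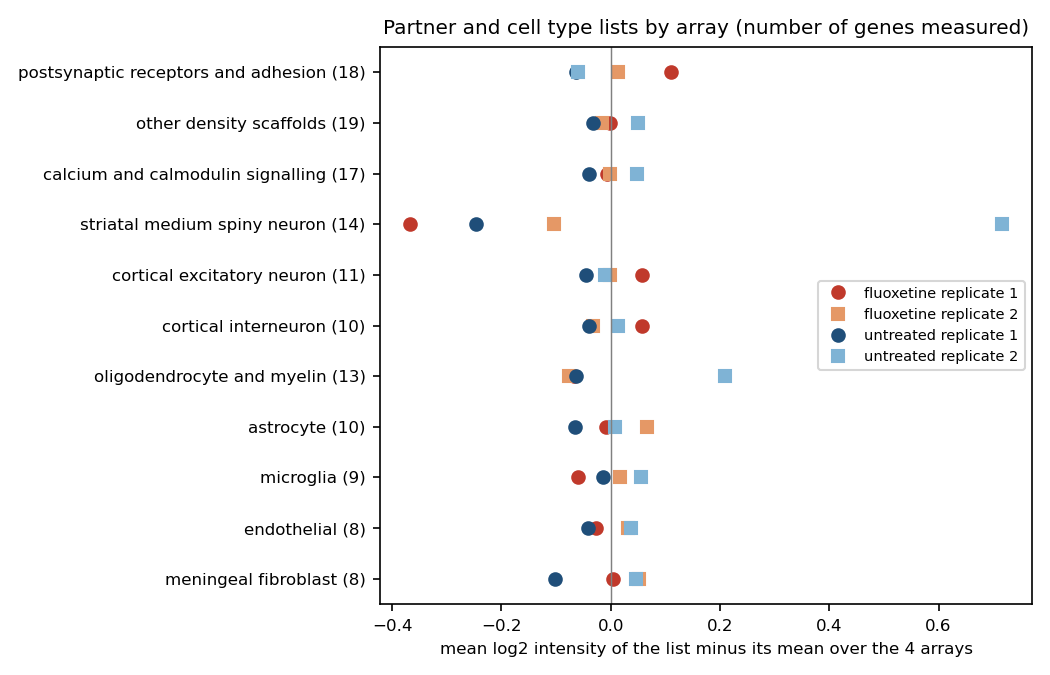
Mean log2 intensity of each list of partner genes or cell type markers on each array, minus the list's mean over the 4 arrays; the number of measured genes is in parentheses. Untreated replicate 2 stands far to the right for striatal and myelin markers, while receptors and adhesion proteins are highest on the fluoxetine arrays.

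RefSeq (GRCm38.p6) promoter windows were at hand for 3 of the 5 members past the unadjusted threshold, Camk2d, Abi1 and Arhgap32, which were all higher, and the 250 bases before a start are shown so that the sequences upstream of these transcripts can be compared. Capitals mark the GC box GGGCGG on either strand. Camk2d lies at chr3:126596701-126596950 (plus strand), Abi1 at chr2:23040242-23040491 (minus strand) and Arhgap32 at chr9:32032053-32032302 (plus strand), the last being the only one of its 3 windows with a GC box.

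Camk2d: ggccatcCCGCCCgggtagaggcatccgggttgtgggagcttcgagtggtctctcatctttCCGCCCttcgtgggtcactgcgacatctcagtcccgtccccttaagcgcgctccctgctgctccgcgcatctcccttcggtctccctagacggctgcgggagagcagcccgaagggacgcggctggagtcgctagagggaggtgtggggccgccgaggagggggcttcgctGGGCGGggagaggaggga

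Abi1: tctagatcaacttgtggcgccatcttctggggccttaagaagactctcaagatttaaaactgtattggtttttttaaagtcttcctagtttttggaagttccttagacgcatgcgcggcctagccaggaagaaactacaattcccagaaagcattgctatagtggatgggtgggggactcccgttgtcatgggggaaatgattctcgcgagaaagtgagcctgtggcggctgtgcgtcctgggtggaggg

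Arhgap32: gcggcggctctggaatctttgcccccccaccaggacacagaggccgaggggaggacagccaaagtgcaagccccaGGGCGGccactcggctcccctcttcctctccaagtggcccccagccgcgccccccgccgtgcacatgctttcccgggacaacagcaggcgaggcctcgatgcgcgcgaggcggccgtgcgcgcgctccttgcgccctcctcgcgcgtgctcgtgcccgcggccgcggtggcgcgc

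The Camk2d window held 3 GC boxes, that of Arhgap32 held 1 and that of Abi1 held 0, and 32.7% of the 32851 windows in the table held at least 1. GC content was 68.4% for Camk2d, 49.2% for Abi1 and 74.4% for the Arhgap32 window shown, against 50.4% for each of its other 2 windows and a median of 52.4% over all windows. The cyclic AMP response element TGACGTCA, the shorter core TGACG, the Egr1 site GCGGGGGCG and the TATA box TATAAA, searched on both strands and present in 1.55%, 17.8%, 2.57% and 12.4% of all windows, did not occur in any window of the 3 genes. The core also lies within the full element. Camk2d had 1 window, Abi1 a pair that overlap and Arhgap32 3, and the arrays do not tell which start was used.

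Among the scaffolds that hold receptors, the 4 MAGUK genes were all slightly below the untreated level, and none passed. Dlg4, which encodes PSD-95, read 11.88 and 11.93 with fluoxetine and 11.96 and 11.995 without, a log2 difference of −0.07 (SE 0.04). Dlg1, for SAP97, differed by −0.05 (SE 0.04) and Dlg2, for PSD-93, by −0.07 (SE 0.05). In these 3 genes both fluoxetine arrays lay below both untreated arrays, by less than 0.1 on average. The groups overlapped for Dlg3, for SAP102, at −0.03 (SE 0.05), and its difference was 0.0099 after subtracting array medians. The other probe sets of Dlg1, Dlg2 and Dlg4 did not all follow. For Dlg4 they differed by 0.09 and 0.08. For Dlg1, 1450768_at differed by 0.05 (SE 0.06), its groups not overlapping and fluoxetine the higher, and the very dim 1445798_at by −0.26 (SE 0.22). For Dlg2, probe set 1421199_at read 7.95 and 7.91 with fluoxetine and 7.66 and 7.73 without, a difference of 0.23 (SE 0.09, unadjusted p = 0.028 and adjusted p = 0.474 by limma over all probe sets). It passed only without untreated replicate 2 when each array was left out, at 0.20 to 0.27, and 1421200_at differed by 0.02. The 95% intervals of the 4 brightest probe sets lay between −0.18 and 0.09.

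The Dlgap linkers, which join MAGUKs to Shank proteins, differed from each other. Dlgap2 read 7.40 and 7.32 with fluoxetine and 7.02 and 6.95 in untreated mice. Both fluoxetine arrays stood clear of both untreated arrays, and the gap between the groups was several times that between arrays of a group. The means were 7.36 ± 0.06 and 6.99 ± 0.05 (SD, n = 2 each), a 1.29-fold difference (log2 0.37, SE 0.10; unadjusted p = 0.0073, adjusted p = 0.696 by limma). Its single probe set is dim, below the median level of 7.87 over all genes, where background weighs most. Without fluoxetine replicate 1 the difference was 0.33 and no longer passed (unadjusted p = 0.068 by limma); it passed without each of the other arrays.

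Dlgap1, whose product was first found as the guanylate kinase-associated protein, had 6 probe sets, and all were higher with fluoxetine, by 0.07 to 0.21, though none at an unadjusted p below 0.05. Its brightest read 12.63 and 12.54 against 12.54 and 12.50, so that the groups did not overlap but their nearest arrays read the same to 2 decimals. Dlgap3, a linker abundant in striatum, was at −0.08 (SE 0.06) and Dlgap4 at −0.04 (SE 0.05), both with overlapping groups. Dlgap3 was highest, at 9.97, in untreated replicate 2, the array with the striatal signal, and its difference was −0.05 without that array. The part of the striatal signal in it was not tested.

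Shank1 was the member with the lowest difference. It read 6.65 and 6.70 with fluoxetine and 6.96 and 7.02 in untreated mice, with no overlap. The means of 6.68 ± 0.04 and 6.99 ± 0.04 (SD, n = 2 each) differed by −0.31 (SE 0.10; unadjusted p = 0.021, adjusted p = 0.696 by limma), so that the level was 1.24-fold lower. Like Dlgap2, it has 1 probe set of low brightness. The difference kept its direction without each array, at −0.34 to −0.28, but passed only when untreated replicate 1 was left out. Without untreated replicate 2 it was −0.28 (unadjusted p = 0.063 by limma). Shank3, the scaffold whose loss causes Phelan-McDermid syndrome in humans, read 9.38 and 9.50 with fluoxetine and 9.45 and 9.55 without. Its groups overlapped, and the difference of −0.06 (SE 0.07) became 0.0065 without fluoxetine replicate 1.

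**Figure D3:**
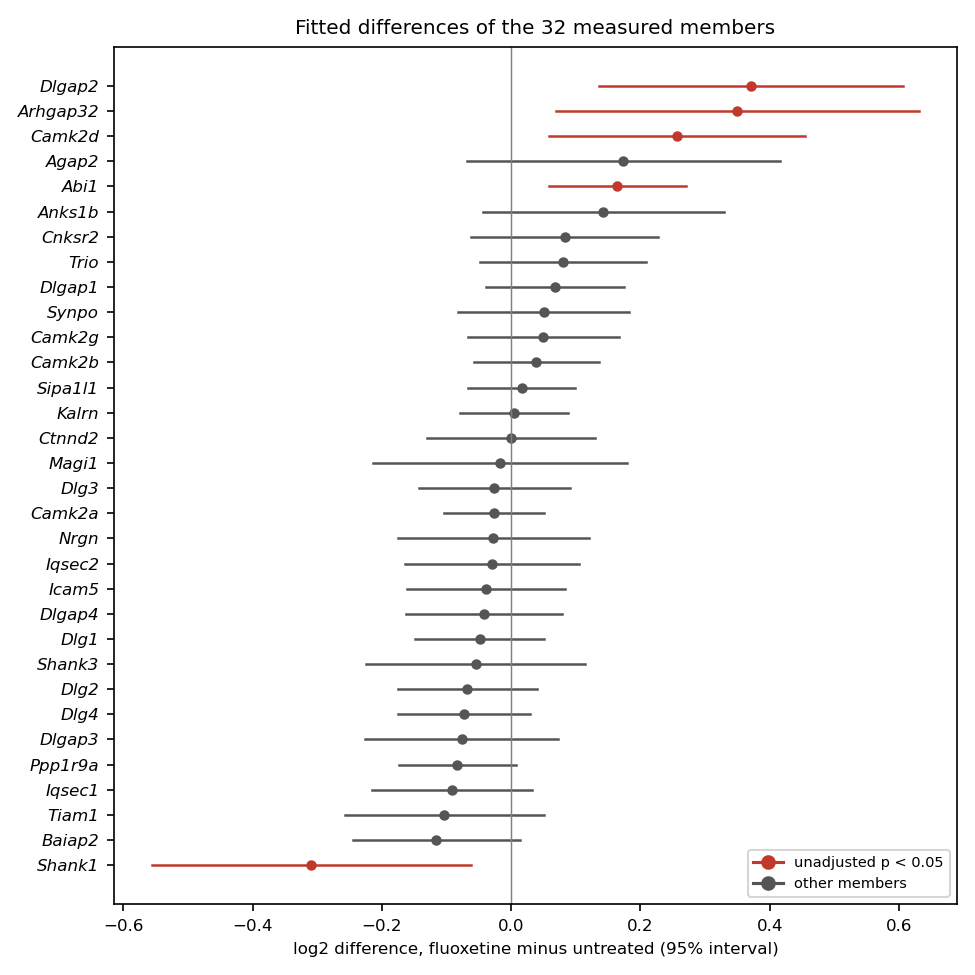
Fitted log2 difference of each measured member (point) with its 95% interval from limma (line), ordered from the most negative to the most positive. Red marks an unadjusted p below 0.05. Dlgap2, Arhgap32, Camk2d and Abi1 lie above 0 and Shank1 below it, and the intervals of the other 27 members include 0.

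CaMKII is a holoenzyme built from 4 related subunits, alpha, beta, gamma and delta, of which alpha and beta predominate in forebrain neurons. The subunits did not move together. Camk2d, for the delta subunit, read 9.11 and 8.97 with fluoxetine and 8.71 and 8.85 without. Both fluoxetine arrays were higher, but the nearest arrays of the groups were as close as arrays of 1 group. The difference was 0.26 (SE 0.08; unadjusted p = 0.018, adjusted p = 0.696 by limma), or 1.19-fold. A dimmer probe set of the gene, 1427763_a_at, differed by 0.25 (SE 0.10, unadjusted p = 0.042 and adjusted p = 0.512 by limma), with 8.09 and 7.86 against 7.73 and 7.73. That probe set was at 0.14 without fluoxetine replicate 1 (unadjusted p = 0.310) and passed only without fluoxetine replicate 2. The other 5 probe sets differed by −0.36 to 0.26, with 3 of them below 0, and none passed. The difference was 0.04 over the mean of all 7 and no longer passed without fluoxetine replicate 1 or untreated replicate 1 (0.19 each).

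Camk2a, for the alpha subunit, read 13.91 and 13.89 with fluoxetine and 13.95 and 13.91 without on its brightest probe set. The groups overlapped, with a difference of −0.03 (SE 0.03) and a 95% interval from −0.10 to 0.05. Its next 2 probe sets differed by 0.01 and 0.07. Another, 1452453_a_at, read 9.40 and 9.33 with fluoxetine and 8.78 and 9.11 without, with no overlap and a wide gap between the untreated arrays. It differed by 0.43 (SE 0.11; unadjusted p = 0.0056, adjusted p = 0.377 by limma over all probe sets), by 0.26 without untreated replicate 1, and by 0.59 without untreated replicate 2. Camk2b, for the beta subunit, differed by 0.04 (SE 0.04) and Camk2g, for gamma, by 0.05 (SE 0.05). The groups did not overlap for Camk2b, at 11.97 and 11.94 against 11.90 and 11.93, while the Camk2g value rested on fluoxetine replicate 1 and was −0.0078 without it.

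Regulators of small GTPases were the most numerous class, with 8 measured. Arhgap32, a GTPase-activating protein that binds PSD-95 and NMDA receptors, was the only one to pass. It read 9.15 and 8.78 with fluoxetine and 8.60 and 8.64 without. Its 2 fluoxetine arrays lay further apart than the lower of them lay from the untreated arrays. The difference of 0.35 (SE 0.12; unadjusted p = 0.021, adjusted p = 0.696 by limma), or 1.27-fold, was 0.16 without fluoxetine replicate 1 (unadjusted p = 0.177) and 0.53 without fluoxetine replicate 2, the only array without which it passed. Without untreated replicate 1 it was 0.33 (unadjusted p = 0.085) and without untreated replicate 2 it was 0.37 (unadjusted p = 0.059), and it also did not pass without the intensity trend (unadjusted p = 0.064 by limma). Its other probe sets differed by 0.05 and −0.21, and the mean of all 3 by 0.07.

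The exchange factors were mixed. Kalrn, whose kalirin-7 form enlarges spines, differed by 0.0037 (SE 0.04) on its brightest probe set, and its 8 probe sets ran from −0.15 to 0.31 with none past the threshold. Trio, its close relative, was at 0.08 (SE 0.05), with 6 probe sets from −0.24 to 0.14. Tiam1, a Rac exchange factor that acts downstream of NMDA receptors, read 10.72 and 10.77 with fluoxetine and 10.77 and 10.93 without. The highest value was again untreated replicate 2, and the difference of −0.10 (SE 0.07) fell to −0.02 without it, while its other, dim probe sets were also lower, at −0.31 and −0.52. Among the Arf regulators, Iqsec1 differed by −0.09 (SE 0.05), Iqsec2 by −0.03 (SE 0.06) and Agap2, which links PI3 kinase signalling to receptors, by 0.17 (SE 0.10). Agap2 read 7.18 and 7.19 with fluoxetine and 6.95 and 7.07 without, so that the groups did not overlap on this dim probe set. Sipa1l1, a Rap GTPase-activating protein also called SPAR, had the narrowest spread, with all 4 arrays between 12.95 and 12.98 and a difference of 0.02 (SE 0.03).

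Of the proteins that organize spine actin, Abi1 was higher. It encodes a subunit of the WAVE complex, which starts branched actin, and also binds CaMKII alpha and Shank3. Abi1 read 11.74 and 11.68 with fluoxetine and 11.55 and 11.54 without, means of 11.71 ± 0.05 and 11.55 ± 0.01 (SD, n = 2 each). The groups were well apart, and the difference of 0.16 (SE 0.05; unadjusted p = 0.0080, adjusted p = 0.696 by limma), or 1.12-fold, was the smallest of those that passed. A second probe set of like brightness, 1423177_a_at, differed by 0.06 (SE 0.05), with overlapping groups, and 1438506_s_at by 0.15 (SE 0.10). The dim 1423178_at differed by −0.25 (SE 0.17), with both fluoxetine arrays below both untreated arrays. The call ended with the mean of all 4 probe sets (0.03, unadjusted p = 0.613), without the intensity trend (unadjusted p = 0.064) and without fluoxetine replicate 1 (0.13, unadjusted p = 0.076 by limma).

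Baiap2, or IRSp53, which bends membranes and binds Shank, was at −0.12 (SE 0.05), and Ppp1r9a, for neurabin, which anchors protein phosphatase 1 to actin, at −0.08 (SE 0.04). Both had fluoxetine arrays below untreated arrays, with unadjusted p of 0.072 and 0.065 by limma. Baiap2 read 10.56 and 10.55 against 10.62 and 10.72, and was at −0.07 without untreated replicate 2. Ppp1r9a read 12.48 and 12.45 against 12.53 and 12.56, and all 5 of its probe sets were lower, by −0.28 to −0.07. The second quantile normalization, in which 7 members were lower at an unadjusted p below 0.05, put both past the threshold, at −0.16 and −0.11, together with Dlg1 (−0.08), Dlg4 (−0.10), Iqsec1 (−0.13), Tiam1 (−0.15) and Shank1 (−0.29). Under that normalization 6.12% of all genes were lower, against 3.51% as deposited. Synpo, for synaptopodin of the spine apparatus, was at 0.05 (SE 0.06) with overlapping groups.

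The remaining scaffolds and signalling proteins did not pass with their brightest probe sets. Anks1b encodes AIDA-1, which binds PSD-95 and moves to the nucleus on NMDA receptor activation. Its brightest probe set read 11.41 and 11.21 with fluoxetine and 11.10 and 11.24 without, which overlap, for a difference of 0.14 (SE 0.08). It was 0.04 without fluoxetine replicate 1 and 0.07 without untreated replicate 1, and 0.24 without fluoxetine replicate 2 (unadjusted p = 0.024 by limma) and 0.22 without untreated replicate 2. A pair of dimmer probe sets moved more. On 1452938_at the values were 10.78 and 10.56 with fluoxetine and 10.36 and 10.08 without, a difference of 0.44 (SE 0.11; unadjusted p = 0.0043, adjusted p = 0.369 by limma over all probe sets). On 1449634_a_at they were 10.52 and 10.31 against 10.12 and 9.91, a difference of 0.40 (SE 0.09; unadjusted p = 0.0038, adjusted p = 0.359). On both, every fluoxetine array stood above every untreated array, though arrays of a group differed by about 0.2 to 0.3. The differences ran from 0.30 to 0.58 and from 0.29 to 0.50 as each array was left out, with an unadjusted p below 0.05 each time. The other 4 probe sets differed by −0.04 to 0.40 without passing. Where each probe set lies along its transcript was not analysed here.

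Magi1, a MAGUK with inverted domain order, differed by −0.02 (SE 0.08) on its brightest probe set and by 0.41 (SE 0.12; unadjusted p = 0.012, adjusted p = 0.416 by limma) on the dim 1440871_at, which read 6.80 and 6.65 with fluoxetine and 6.39 and 6.23 without. The latter no longer passed without fluoxetine replicate 1 (0.34) or untreated replicate 2 (0.34). Cnksr2, a Ras pathway scaffold, was at 0.08 (SE 0.06). Ctnnd2, or delta-catenin, was at −0.00039 (SE 0.06) and Icam5, a dendritic adhesion molecule, at −0.04 (SE 0.05). Nrgn, for neurogranin, which binds calmodulin in spines, read 13.48 and 13.29 with fluoxetine and 13.37 and 13.45 without. The fluoxetine arrays spanned both untreated values, and the difference was −0.03 (SE 0.06).

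Taking every probe set of the members, 10 of 101 were higher at an unadjusted p below 0.05 (9.9%, where 6.4% of all 34945 named probe sets were higher) and 1 was lower (where 3.04% were lower), and 0 passed after adjustment. The count of higher probe sets changed when either fluoxetine array was left out, and no share over all probe sets was taken for comparison there. Of the 23 members with several probe sets, 17 had differences of both signs. This count includes Synpo, whose second probe set, 1434089_at, differed by −5.0e-10, which is no difference beyond rounding. In 5 members, Dlg2, Camk2a, Camk2d, Magi1 and Anks1b, a probe set other than the brightest passed, all 6 of them higher.

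**Figure D4:**
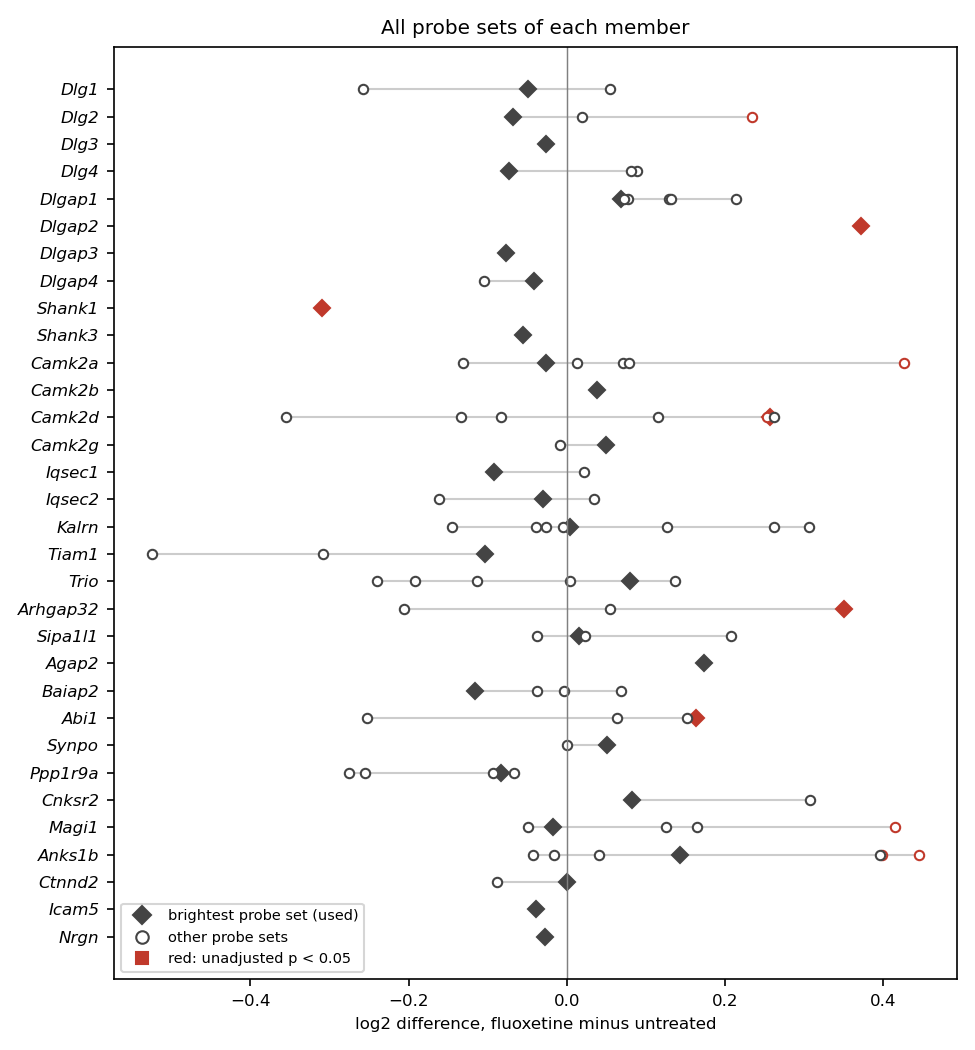
Log2 difference (fluoxetine minus untreated) of every probe set of each member: filled diamonds are the brightest probe sets, open circles the others, red an unadjusted p below 0.05, and grey lines span a gene's probe sets. Camk2a, Magi1, Anks1b, Kalrn and Cnksr2 have probe sets above 0.3 whose brightest probe set lies below 0.15. Of 23 genes with several probe sets, 17 straddle 0, counting Synpo, whose second probe set lies at 0 within rounding.

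The calls of single members depended on which arrays and probe sets entered. Without fluoxetine replicate 1, no member was higher and none lower at an unadjusted p below 0.05 by limma, while 369 of all genes passed. The counts of higher and lower members also changed with each other array left out, as did the share of all genes that passed. Over the mean of a gene's probe sets, 2 members were higher and 2 lower, where 833 and 725 of all 18193 genes were. Dlgap2 and Shank1 each have 1 probe set, so that no second probe set annotated to either symbol alone could be compared.

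**Figure D5:**
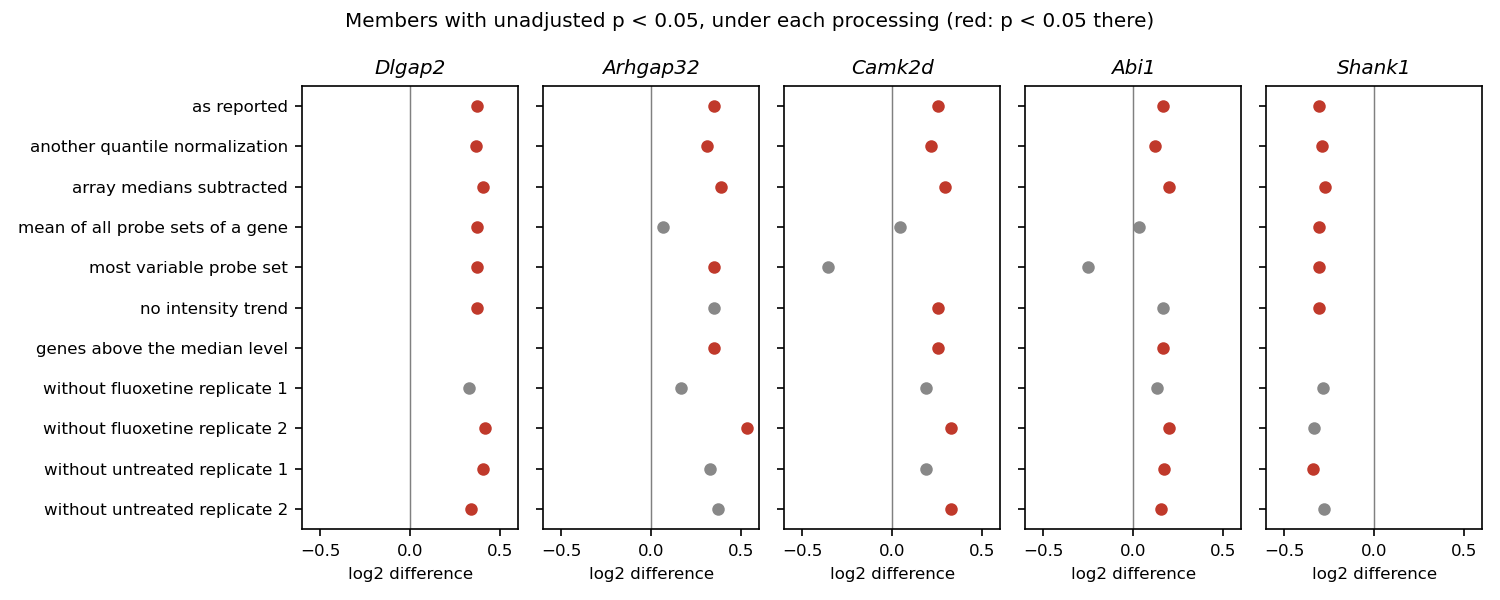
Log2 difference (horizontal axis) of the 5 members with an unadjusted p below 0.05, under each processing (rows); red points passed 0.05 under that processing and grey points did not. Dlgap2 stays between 0.33 and 0.41 and Shank1 between −0.34 and −0.27, while Camk2d and Abi1 turn negative with the most variable probe set and Arhgap32 runs from 0.07 to 0.53.

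Partners of the density were read from lists chosen by role, with earlier results of these data known. Of 18 measured postsynaptic receptors and adhesion proteins, 7 were higher, 0 lower and 11 neither (same unadjusted threshold, which 3.45% of all genes and 5.75% of those above the median level passed as higher), with a median difference of 0.11. Among marker lists, 3 of 11 cortical excitatory neuron genes, 3 of 10 astrocyte genes and 2 of 8 meningeal fibroblast genes were also higher and none lower. Astrocyte markers had mean levels of 10.96 and 11.04 with fluoxetine and 10.90 and 10.98 without, and fibroblast markers 7.50 and 7.54 against 7.39 and 7.54. The part of these cell types in the other lists was not tested. Lrrtm2, an adhesion protein that binds neurexins and PSD-95, was at 0.29 (SE 0.06), with 9.96 and 9.98 against 9.65 and 9.70, and Gria2, the AMPA receptor subunit that blocks calcium entry, at 0.28 (SE 0.06), with 12.72 and 12.62 against 12.48 and 12.30. On their brightest probe sets, other density scaffolds had 0 of 19 past the threshold and a median of 0.01. Homer1, in this list, differed by 0.02 (SE 0.04) on that probe set. With the most variable probe set of each gene, Homer1 differed by 1.08 (adjusted p = 0.00098 by limma). That probe set was chosen by its spread over all arrays, which includes the group difference, so this p cannot be read as a test. Calcium and calmodulin signalling had 1 higher, Camk1 (0.17, SE 0.06), and 0 lower of 17 (median −0.02). With the brightest probe sets, no gene of these lists passed after adjustment over all genes.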

How the data were processed

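Total RNA from prelimbic punches was labelled with biotin and hybridised to Affymetrix 3' arrays, 2 per group, per the labels' protocols. The deposited values are log2 intensities per probe set; RMA, affy and limma are named in the submitters' processing notes without role or version, and chip background handling and genome build are not given in the sources used here. Of 45101 probe sets, 34945 had 1 gene symbol in the platform annotation; 932 had several and 9160 other than the 64 controls had no row, and these are unnamed here. Each gene was read from the probe set that was brightest on average (18193 genes, no filter). Brightness is not compared between genes.

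Fluoxetine was compared with untreated by limma 3.58.1 in R 4.3.3 (lmFit, eBayes with an intensity trend), two-sided, adjusted by Benjamini-Hochberg over all genes, with a threshold of 0.05; single probe sets were tested in a fit over all named probe sets. The fit had 2 residual and 5.15 prior degrees of freedom, so p-values rest mostly on the spread of other genes and measure only the spread between these arrays. The code was tested on simulated data. Since background handling is not given, it is not known whether differences of log2 values understate or overstate changes of dim transcripts. Members and lists were chosen with earlier results of these data known, and 1 list of partners is not reported here. All members are accounted for; those described in full had an unadjusted p below 0.05, probe sets that disagreed, a value resting on 1 array, or belong to the Dlg, Dlgap, Shank or Camk2 families; of partner lists, up to 2 members with the smallest p are named. Alternatives were another quantile normalization, subtraction of array medians, other choices of probe set, no trend, a filter at the median level and leaving out each array. Promoter windows came from RefSeq (GRCm38.p6), which held 27 of the 32 members.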

Additional observations from a re-analysis of the deposited data

How the results depend on the processing

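No paired analysis was possible because the labels give the groups no shared replicate numbers. The median difference over members ran from −0.04 (another quantile normalization) to 0.02 (mean of all probe sets) over the alternatives run. Higher members numbered 2 with the mean of all probe sets, 2 without the intensity trend and 0 to 5 with an array left out. Lower members numbered 7 after another quantile normalization, 2 with the mean of all probe sets, 0 above the median level (where Shank1 is not tested) and 0 to 3 with an array left out. Over all genes the count at an unadjusted p below 0.05 was 731 above the median level and 369 to 1716 with an array left out, and its higher share, 49.6%, was 34% after another quantile normalization, 66.2% after subtracting array medians, 53.5% with the mean and 67% with the most variable probe sets and 30% without the trend. After adjustment 1 gene passed with the most variable probe set (Homer1, 1.08), and 0 to 1 with an array left out (Gt(ROSA)26Sor, −2.39). These genes were named after their values were seen. The most variable probe set is chosen by a spread that includes the group difference, so calls made with it cannot be read as tests.

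Among 317 values of single members under alternatives, 259 kept direction and side of the threshold. A further 15 kept direction but no longer passed, and 12 kept direction and newly passed. The other 31 changed sign, whichever side of the threshold they fell on. Subtracting array medians gave 0.0093 for Camk2a, 0.036 for Ctnnd2, 0.0099 for Dlg3, 0.0066 for Iqsec2, 0.019 for Magi1 and 0.0085 for Nrgn. Another quantile normalization gave −0.014 for Kalrn and −0.011 for Sipa1l1. The mean of all probe sets gave 0.072 for Camk2a, 0.062 for Dlg2, 0.032 for Dlg4, 0.13 for Magi1 and −0.054 for Trio. The most variable probe set gave −0.25 for Abi1, 0.43 for Camk2a, −0.36 for Camk2d, 0.23 for Dlg2, 0.088 for Dlg4, 0.41 for Magi1 and −0.11 for Trio. With an array left out, values ran from −0.0078 to 0.11 for Camk2g, −0.077 to 0.076 for Ctnnd2, −0.061 to 0.0088 for Dlg3, −0.080 to 0.0019 for Icam5, −0.021 to 0.029 for Kalrn, −0.092 to 0.058 for Magi1, −0.12 to 0.064 for Nrgn and −0.12 to 0.0065 for Shank3. The cause of these changes was not tested, other than that another probe set is another reading. A lone array in a group is assumed to vary like the other group. Leaving arrays out of the fit over single probe sets was chosen after seeing the data.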
